A study of Mus musculus with 8 samples.

Results

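Ubiquitin ligases choose the proteins that a cell marks with ubiquitin, and 10 of them that are linked to loss of muscle mass were followed here in TA muscles of dystrophic *mdx5cv* mice. The members were taken by gene symbol and are *Trim63*, *Trim54*, *Trim55*, *Fbxo32*, *Fbxo30*, *Fbxo40*, *Asb2*, *Nedd4*, *Traf6* and *Cbl*. They are 10 of the 55401 genes in the table, and all 10 were tested, as were 13677 genes in total whose mean over the muscles reached 10. The libraries came from whole TA muscles of male mice aged 6 mo. The WT group was C57/Bl6 (n = 4), and the *mdx5cv* group carried a mutation in *Dmd* on the B6 background (n = 4). No treatment is given for either group. The labels number the muscles 1 to 4 within each genotype and do not say whether each came from a different mouse, so the p-values measure the spread between these samples. Values are normalized counts, which are reads divided by a size factor for each library, and fold changes are *mdx5cv* over WT on the log2(normalized count + 1) scale.

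Ubiquitin is activated by an E1 enzyme, passed to an E2 enzyme and placed on a target protein with the help of an E3 ligase, and proteins with a ubiquitin chain are often degraded by the proteasome. *Trim63* encodes MuRF1 and *Fbxo32* encodes atrogin-1, the ligases used most widely as markers of muscle atrophy. Both are induced by FoxO transcription factors when muscle is unloaded, denervated or deprived of food. Dystrophic muscle differs from such wasting muscle in that fibers die and are replaced by regenerating fibers, inflammatory cells and connective tissue.

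Of the 10 ligases, 1 was higher and 4 were lower in *mdx5cv* muscle at an adjusted p under 0.05 in limma. *Cbl* was the higher gene, and *Asb2*, *Fbxo32*, *Fbxo40* and *Traf6* were the lower genes. Of all genes tested, 20.9% were higher and 20.1% were lower by the same rule. Ranges of the 4 WT and the 4 *mdx5cv* muscles were separate for *Cbl* on the higher side and for *Fbxo40*, *Asb2* and *Traf6* on the lower side, against 20.3% of all genes on the higher side and 19.8% on the lower side. *Cbl* alone was called with an absolute log2 fold change reaching 1, which 10.3% of all genes passed on the higher side and 3.27% on the lower side. On the lower side 0 members passed this minimum in limma, 0 in edgeR and 0 in DESeq2. Under median centring *Asb2* passed it (log2 fold change -1.07) and *Cbl* did not (0.97). At an unadjusted p under 0.05 in limma 5 members were lower, and the share of all genes under that rule was not counted. The median log2 fold change of the 10 ligases was -0.35, and that of all genes tested was 0.00. Under equal library totals in place of size factors, the median of all genes moved to 0.36 and that of the ligases to 0.01, with 2 ligases called higher and 1 lower. Relative to the shift of all genes, the ligases therefore kept their places, with *Asb2* at -0.98 under size factors and -0.97 under equal totals. The share of all genes called under equal totals was not counted.

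**Figure D1:**
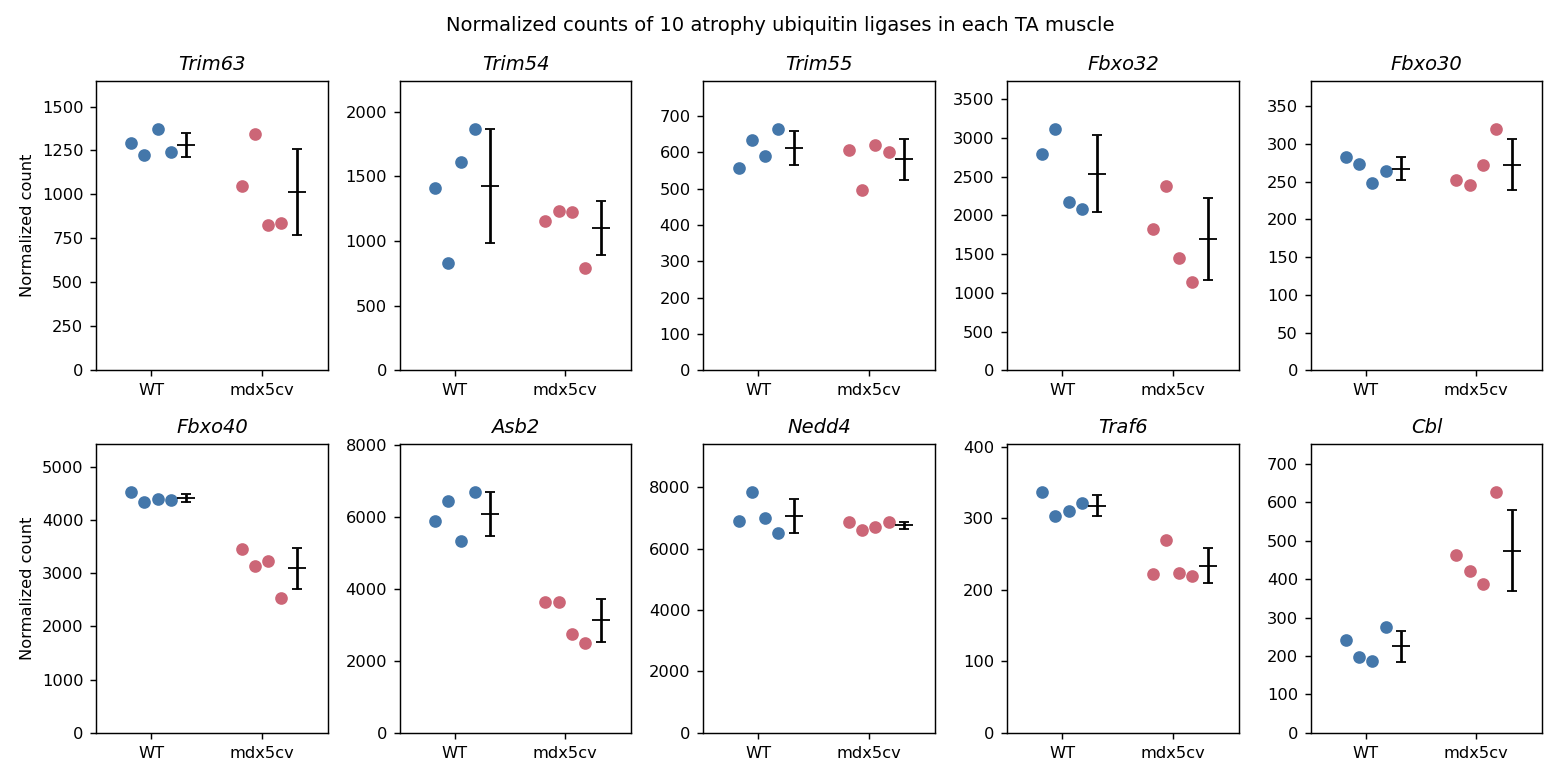
Normalized count (y axis, linear, from 0) of each ligase in each TA muscle, with WT in blue and *mdx5cv* in red (n = 4 each); horizontal marks and bars are the mean and SD. The groups are apart for *Fbxo40*, *Asb2*, *Traf6* and *Cbl* and overlap for the other 6 genes.

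The libraries held 13862559 to 14921057 reads in WT and 13175524 to 14502624 in *mdx5cv*. Genes encoded by the mitochondrial genome took 30.0% to 38.7% of the reads in WT and 25.3% to 32.1% in *mdx5cv*. *Dmd* was lower in *mdx5cv* muscle, with a log2 change of -0.81 (standard error, SE, 0.12, adjusted p = 0.000177 from limma). Fast fiber markers summed to 693933 to 872761 normalized counts in WT and to 509511 to 810445 in *mdx5cv*, so the defining markers of fast muscle were abundant in every library. Of these 6 markers, 3 were lower in *mdx5cv* (*Tnni2*, *Actn3* and *Tnnt3*), with a median log2 change over the list of -0.39 beside -0.35 for the ligases, and 1 was lower under equal totals. Macrophage markers summed to 536 to 803 in WT and 3956 to 9619 in *mdx5cv* (7 of 7 genes higher), fibroblast markers to 5766 to 8443 and 18069 to 32278 (5 of 6 higher), and regenerating fiber markers to 198 to 229 and 2514 to 9398 (6 of 6 higher). Endothelial markers were lower (5 of 5 genes, from 2513 to 3045 in WT and from 1536 to 1968 in *mdx5cv*), as were 4 of 5 adipocyte markers, which summed to 909 to 1480 in WT and 423 to 658 in *mdx5cv*. Slow fiber markers were higher for 4 of 6 genes, with sums of 288 to 555 and 1152 to 2549. The lymphocyte markers summed to 1.11 to 8.78 in WT and 18.5 to 48.7 in *mdx5cv*. All 6 were under the minimum mean for limma, and DESeq2, which was run without it, called 4 of 6 higher. In whole muscle, fewer fibers and less RNA per fiber cannot be told apart, and the part of these cell markers in the results on the ligases was not tested.

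The 3 MuRF genes encode RING-finger proteins of the sarcomere. *Trim63* (chr4:134315120-134329629, plus strand, GRCm38) encodes MuRF1, which ubiquitinates thick filament proteins and creatine kinase. Its normalized counts were 1295, 1223, 1371 and 1239 in WT replicates 1 to 4 and 1046, 1344, 828 and 835 in *mdx5cv* replicates 1 to 4. Replicate 2 of *mdx5cv* was within the WT range, and the other 3 *mdx5cv* muscles were below every WT muscle. The mean of *Trim63* was 1282 ± 66.8 in WT muscle and 1013 ± 243 in *mdx5cv* muscle (SD, n = 4). The log2 fold change of *Trim63* was -0.37 (SE 0.14, 95% interval -0.67 to -0.06, adjusted p = 0.0537 from limma), which missed the threshold. Over the alternatives its adjusted p lay between 0.00445 and 0.963, and it passed under TMM factors (0.0472), median centring (0.0249), the replicate block (0.0490) and without *mdx5cv* replicate 2 (0.00445, log2 fold change -0.51). It was highest under equal totals.

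*Trim54* (chr5:31116712-31137630, plus strand) encodes MuRF3, which binds microtubules and Z discs. WT muscles had 1405, 829, 1612 and 1863 normalized counts of *Trim54*, and *mdx5cv* muscles had 1157, 1230, 1221 and 791. WT replicate 2 and *mdx5cv* replicate 4 were the low muscles of their groups. The means were 1427 ± 441 and 1100 ± 208 (SD, n = 4), and the log2 fold change of -0.34 had a 95% interval of -0.80 to 0.13 (0.02 under equal totals). The adjusted p was 0.236 in limma, with 0.0125 and 0.944 as the extremes of the alternatives. Without WT replicate 2 the log2 fold change was -0.58 with an adjusted p of 0.0125 in limma. *Trim55* (chr3:19644474-19692421, plus strand) encodes MuRF2, a relative found on titin and microtubules. The normalized counts of *Trim55* were 557, 634, 588 and 663 in WT and 606, 496, 620 and 599 in *mdx5cv*, and the groups overlapped across most of their range. The log2 fold change of *Trim55* was -0.08 (95% interval -0.31 to 0.16, adjusted p = 0.606 from limma) and 0.28 under equal totals.

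Among the F-box proteins, which bind the target within SCF ligases, *Fbxo32* and *Fbxo40* fell and *Fbxo30* did not pass the test. *Fbxo32* (chr15:58175879-58214932, minus strand) encodes atrogin-1, whose targets include MyoD and the translation factor subunit eIF3f. For *Fbxo32*, normalized counts were 2793, 3113, 2176 and 2078 in WT and 1820, 2374, 1452 and 1137 in *mdx5cv*. Replicate 2 of *mdx5cv* was above WT replicates 3 and 4, so the groups overlapped. The means were 2540 ± 496 and 1696 ± 532 (SD, n = 4), and the log2 difference was -0.62 (SE 0.20, adjusted p = 0.0248 from limma). Over the alternatives the adjusted p of *Fbxo32* lay between 0.000908 and 0.199. It missed the threshold under equal totals (0.199, log2 fold change -0.26), without the trend in the variance (0.0672), and when WT replicate 1 (0.0718), WT replicate 2 (0.0688), *mdx5cv* replicate 3 (0.0623) or *mdx5cv* replicate 4 (0.0683) was left out.

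*Fbxo40* (chr16:36963460-36990467, minus strand) encodes a muscle F-box protein that targets IRS1, an adaptor of the insulin and IGF1 receptors. It had normalized counts of 4526, 4344, 4402 and 4374 in WT and 3457, 3125, 3234 and 2543 in *mdx5cv*. The 4 WT muscles were tightly grouped, and every *mdx5cv* muscle was below them. The mean fell from 4411 ± 79.9 to 3090 ± 390 (SD, n = 4), which was 30.0% lower, with a log2 fold change of -0.52 (SE 0.11, 95% interval -0.76 to -0.29, adjusted p = 0.00214 from limma). Equal totals was the alternative under which *Fbxo40* missed the threshold, with a log2 fold change of -0.16 and an adjusted p of 0.209 (range over the alternatives 2.38e-05 to 0.209). *Fbxo30* (chr10:11281330-11298052, plus strand) encodes MUSA1, a ligase that BMP signaling represses. Normalized counts of *Fbxo30* were 283, 273, 248 and 265 in WT and 252, 245, 273 and 320 in *mdx5cv*, and the groups overlapped. The log2 fold change of *Fbxo30* was 0.02 (95% interval -0.23 to 0.27, adjusted p = 0.896 from limma) and -0.07 under median centring.

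*Asb2* showed the largest fall of the 10 ligases. *Asb2* (chr12:103321142-103356001, minus strand) encodes an ankyrin-repeat protein with a SOCS box that joins a cullin-5 ligase and targets filamins, and raised *Asb2* reduces muscle mass. Its normalized counts were 5886, 6451, 5319 and 6692 in WT and 3633, 3631, 2754 and 2487 in *mdx5cv*. All 4 *mdx5cv* muscles lay below the lowest WT muscle. The mean went from 6087 ± 613 to 3126 ± 594 (SD, n = 4), which was 48.6% lower. The log2 fold change was -0.98 (SE 0.14, 95% interval -1.28 to -0.67, adjusted p = 0.000142 from limma). *Asb2* was called lower under every alternative run, with an adjusted p of at most 0.00186. Its log2 fold change was -0.62 under equal totals and -1.07 under median centring.

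The remaining members are broadly expressed ligases. *Nedd4* (chr9:72662346-72749852, plus strand), a HECT ligase that acts on membrane proteins and on Notch signaling, had normalized counts of 6888, 7846, 7001 and 6524 in WT and 6870, 6620, 6691 and 6852 in *mdx5cv*. The *mdx5cv* values lay inside the WT range. The log2 fold change of *Nedd4* was -0.06 (95% interval -0.28 to 0.16, adjusted p = 0.667 from limma), and under equal totals it was 0.30 with an adjusted p of 0.0400, the lowest over the alternatives (highest 0.948). *Traf6* (chr2:101678429-101701669, plus strand) is a RING ligase that carries signals from receptors of the TNF and Toll-like families to NF-kB. Its normalized counts were 337, 303, 311 and 321 in WT and 222, 270, 224 and 220 in *mdx5cv*. The groups were separate, and *mdx5cv* replicate 2 was nearest to WT. The mean fell from 318 ± 14.8 to 234 ± 23.9 (SD, n = 4), which was 26.4% lower, with a log2 fold change of -0.44 (SE 0.11, adjusted p = 0.00563 from limma). Under equal totals the log2 fold change of *Traf6* was -0.09 with an adjusted p of 0.581, the highest over the alternatives (lowest 0.00203).

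*Cbl* was the ligase that rose. *Cbl* (chr9:44142976-44234049, minus strand) encodes a RING ligase that ubiquitinates activated receptor tyrosine kinases. Its normalized counts were 241, 196, 188 and 274 in WT and 461, 422, 387 and 626 in *mdx5cv*. Every *mdx5cv* muscle was above every WT muscle, and *mdx5cv* replicate 4 was the highest. The mean rose from 225 ± 40.3 to 474 ± 106 (SD, n = 4), which was 2.11-fold, with a log2 fold change of 1.07 (SE 0.16, 95% interval 0.72 to 1.42, adjusted p = 0.000232 from limma). *Cbl* was called under every alternative run, with an adjusted p of at most 0.00257, and its log2 fold change was 0.92 without *mdx5cv* replicate 4 and 0.97 under median centring. *Mdx5cv* replicate 4 also had the highest sum of macrophage markers (9619, against 3956 to 5626 in the other 3), and the part of these cells in the level of *Cbl* was not tested.

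The close relative of *Cbl* had no read in *mdx5cv* muscle. *Cblb*, which encodes Cbl-b, a ligase that marks IRS1 in unloaded muscle, had normalized counts of 276, 363, 349 and 349 in WT and was without a read in each *mdx5cv* muscle. Set against a floor of 3 reads per library this was at least 125-fold lower. The cause of this absence of reads was not tested, nor was any link between it and the level of *Cbl*. Per kb of exon, *Cblb* made up 57.5% to 68.7% of the sum of the pair in WT. Together, *Cbl* and *Cblb* reached 50.1 ± 4.07 per kb of exon in WT muscle and 38.4 ± 8.58 in *mdx5cv* muscle (SD, n = 4), where it was *Cbl* alone. *Mdx5cv* replicate 4, at 50.7, was within the WT range of 45.9 to 55.5, and the other 3 *mdx5cv* muscles were below it.

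**Figure D2:**
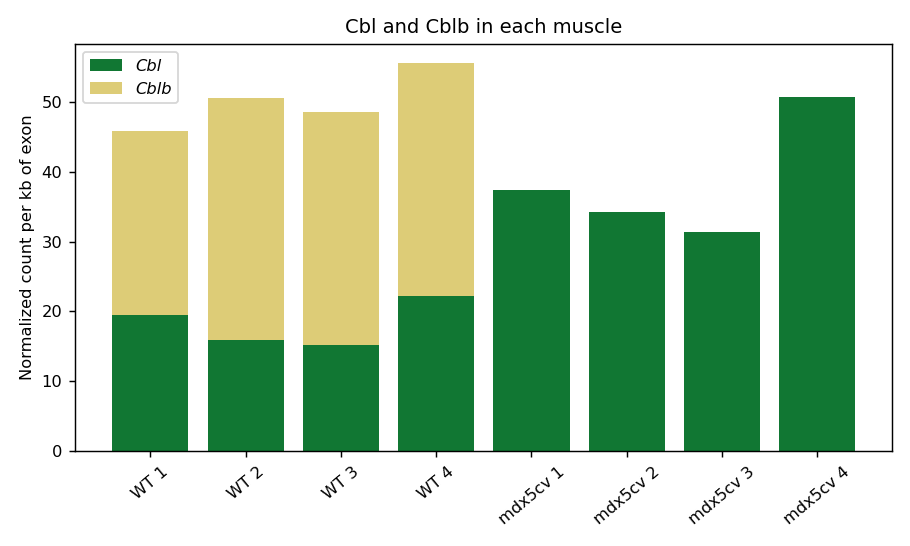
Normalized count per kb of exon (y axis, linear) of *Cbl* (green) and *Cblb* (yellow) stacked for each of the 4 WT and 4 *mdx5cv* TA muscles. *Cblb* is the larger share in each WT muscle and has no read in *mdx5cv*, where *Cbl* is between 31.4 and 50.7.

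**Figure D3:**
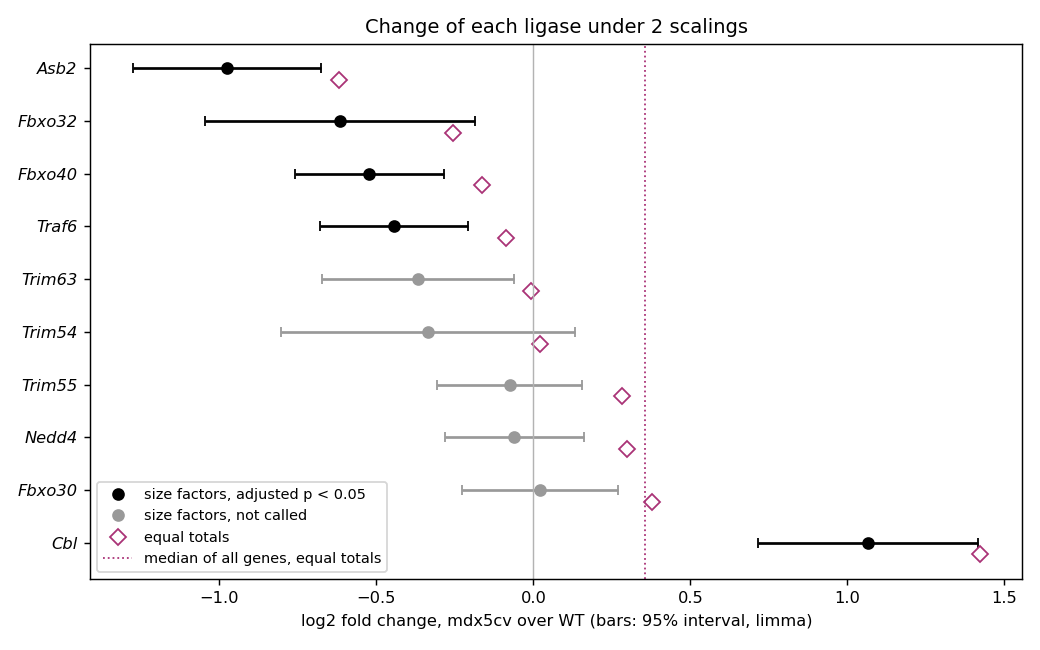
Log2 fold change (x axis, *mdx5cv* over WT) of each ligase under the deposited size factors, with 95% limma intervals (circles, black where the adjusted p is under 0.05), and under equal totals (diamonds). The dotted line is the median of all genes under equal totals, 0.36. The diamonds of *Trim54*, *Trim55* and *Nedd4* lie on the other side of 0 from their circles, and the other ligases keep their direction. *Asb2* and *Cbl* were called under both scalings.

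Compared per length in WT muscle, the ligases fell into an abundant and a scarce set. *Asb2* was the most abundant, with 1719 ± 173 normalized counts per kb of exon, followed by *Trim54* (994 ± 307), *Fbxo40* (799.6 ± 14.5), *Nedd4* (644 ± 51.0), *Trim63* (451 ± 23.5), *Fbxo32* (364 ± 71.1) and *Trim55* (229.6 ± 17.8). *Fbxo30* (51.4 ± 2.88), *Traf6* (40.3 ± 1.87) and *Cbl* (18.2 ± 3.27) were far below them (SD, n = 4 for each). Of neighbours in this order, *Trim54* overlapped with *Fbxo40* and *Trim63* overlapped with *Fbxo32*. In *mdx5cv* muscle, *Asb2* remained at the top with 883 ± 168 per kb but overlapped with *Trim54* (766 ± 145), *Nedd4* (616 ± 11.2) stood above *Fbxo40* (560.0 ± 70.7), and *Cbl* (38.4 ± 8.58) stood above *Traf6* (29.7 ± 3.03). Each of these neighbours overlapped in range, and the clear gap left was that between *Trim55* (218 ± 21.4) and *Fbxo30* (52.4 ± 6.46).

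**Figure D4:**
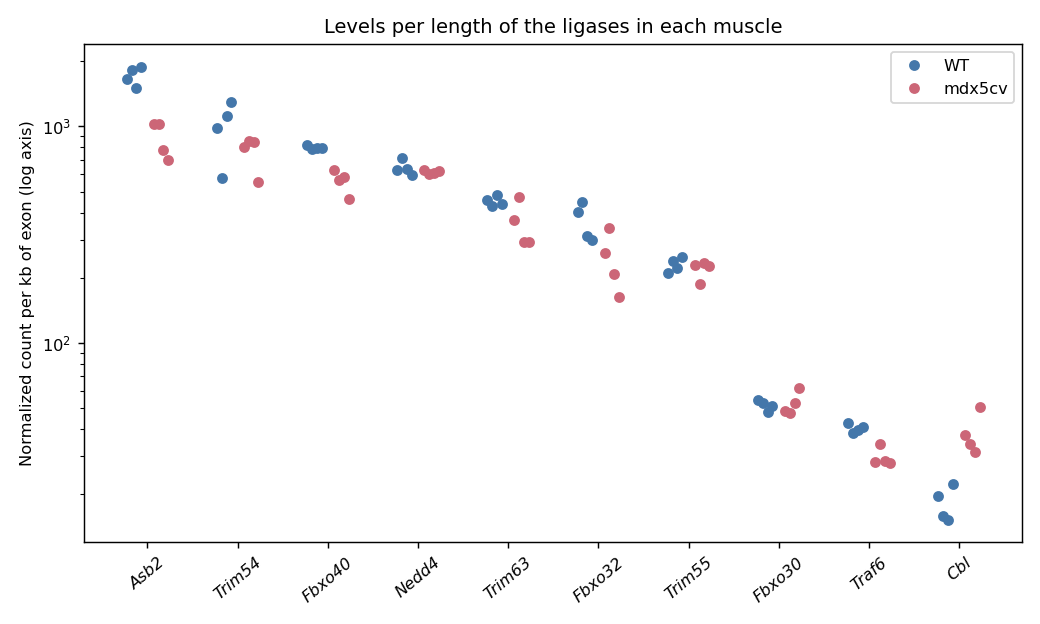
Normalized count per kb of exon (y axis, log scale) of each ligase in each of the 4 WT (blue) and 4 *mdx5cv* (red) TA muscles, in the order of the WT means. The order runs from *Asb2* (1719 in WT) to *Cbl* (18.2 in WT), and *Cbl* passes *Traf6* in *mdx5cv*.

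A ratio of a pair of ligases within a muscle does not depend on how the libraries are scaled. Of 6 pairs, the ratio of *Cbl* to *Nedd4* differed most between genotypes. It was 0.0251 to 0.0422 in WT and 0.0580 to 0.0916 in *mdx5cv*, a log2 difference of 1.13 (SE 0.22, exact permutation test, two-sided, p = 0.0286, the smallest that 4 against 4 allows, and 0.171 after adjustment over the 6 pairs). The ratio of *Trim63* to *Fbxo32*, the usual pair of atrophy markers, was 0.393 to 0.630 in WT and 0.566 to 0.735 in *mdx5cv*. Its log2 difference was 0.25 (exact permutation p = 0.286, adjusted 0.514). The ratios of *Trim54* and *Trim55* to *Trim63* had log2 differences of 0.03 and 0.29 (exact permutation p = 0.943 and 0.343), and those of *Fbxo30* and *Fbxo40* to *Fbxo32* had log2 differences of 0.64 and 0.09 (exact permutation p = 0.114 and 0.743). After adjustment no pair passed the threshold, with adjusted p-values from 0.171 to 0.943. With 4 muscles per genotype and 6 pairs, a single pair at the smallest p could not pass, even with its groups fully apart.

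Among the 4 *mdx5cv* muscles, replicate 4 was the lowest for 5 of the 10 ligases (*Trim54*, *Fbxo32*, *Fbxo40*, *Asb2* and *Traf6*) and the highest for *Fbxo30* and *Cbl*. It also had the lowest sum of fast fiber markers (509511, against 742296 to 810445) and the highest sums of macrophage and regenerating fiber markers (9619 and 9398). These ranks and sums depend on the scaling, since replicate 4 had the largest size factor (1.25, against 1.06 to 1.11 in the other *mdx5cv* muscles). In reads before scaling, replicate 4 was the lowest for *Trim54*, *Fbxo32* and *Fbxo40* but not for *Asb2* or *Traf6*. The ranks under equal totals were not computed. Replicate 2 was the highest for *Trim63*, *Trim54*, *Fbxo32* and *Traf6*, and it had the lowest sum of regenerating fiber markers (2514) and the highest sum of fast fiber markers (810445). The part of fiber content in the order of the muscles was not tested. Without *mdx5cv* replicate 4, 1 ligase was higher and 3 were lower, and the median log2 change of the 10 ligases was -0.23. The share of all genes called without this muscle was not counted.

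The promoters of 8 of the 10 ligases were found among the RefSeq start sites (GRCm38.p6), as 11 windows of 300 bases from 250 bases before to 50 after the start. *Asb2*, *Fbxo40* and *Nedd4* have 2 windows each, at different start sites, and which start the muscle uses was not measured. Windows of the same gene are counted separately. Windows are shown for *Trim63*, the textbook FoxO target, for *Asb2* and *Fbxo40*, which fell without overlap, and for *Cbl*, which rose. Motifs were searched on both strands as plain letters and are in capitals, which are the FoxO motif (TGTTTAC or GTAAACA), the E box of myogenic factors (CAGCTG), the AP-1 motif (TGANTCA) and the MEF2 motif (CTANNNNTAG). *Trim63* is at chr4:134314870-134315169 (plus strand), *Asb2* at chr12:103338341-103338640 (minus strand), *Fbxo40* at chr16:36990418-36990717 (minus strand) and *Cbl* at chr9:44233997-44234296 (minus strand).
Trim63: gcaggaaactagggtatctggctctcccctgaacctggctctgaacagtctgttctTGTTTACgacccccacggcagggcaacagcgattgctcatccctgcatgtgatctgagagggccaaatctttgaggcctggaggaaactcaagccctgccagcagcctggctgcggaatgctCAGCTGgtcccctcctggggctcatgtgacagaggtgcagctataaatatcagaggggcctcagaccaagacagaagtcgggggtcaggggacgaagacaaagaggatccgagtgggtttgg
Asb2: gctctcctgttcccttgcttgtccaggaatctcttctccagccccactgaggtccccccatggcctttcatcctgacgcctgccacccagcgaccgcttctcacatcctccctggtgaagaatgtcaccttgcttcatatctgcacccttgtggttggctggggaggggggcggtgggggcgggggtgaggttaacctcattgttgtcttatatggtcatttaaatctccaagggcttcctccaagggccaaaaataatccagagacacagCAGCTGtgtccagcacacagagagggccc
Fbxo40: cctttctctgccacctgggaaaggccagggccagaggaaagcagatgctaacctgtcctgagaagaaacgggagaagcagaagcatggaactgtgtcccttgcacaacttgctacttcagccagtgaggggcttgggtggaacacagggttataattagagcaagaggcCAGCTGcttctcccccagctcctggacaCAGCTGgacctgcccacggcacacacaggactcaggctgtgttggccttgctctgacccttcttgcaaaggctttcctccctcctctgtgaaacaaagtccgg
Cbl: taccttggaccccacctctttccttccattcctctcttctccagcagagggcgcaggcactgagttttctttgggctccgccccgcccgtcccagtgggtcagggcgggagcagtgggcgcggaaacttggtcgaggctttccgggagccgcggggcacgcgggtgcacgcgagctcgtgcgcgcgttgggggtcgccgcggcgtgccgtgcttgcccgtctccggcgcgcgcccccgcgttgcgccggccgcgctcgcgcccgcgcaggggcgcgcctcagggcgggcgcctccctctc
*Trim63* held a FoxO motif starting 194 bases before the start site (position -194) and an E box at -72. *Asb2* had an E box at 22 after the start, and *Fbxo40* had E boxes at -81 and -53. The windows of *Asb2* and *Fbxo40* were chosen for display with their motifs known. The other window of *Asb2* (chr12:103355952-103356251) held none of the 4 motifs, and the other window of *Fbxo40* (chr16:36979087-36979386) held an E box at -89. *Cbl* held none of the 4 motifs in this window. *Traf6*, which also fell without overlap, has a window (chr2:101678170-101678469) that is not shown and that held none of the 4 motifs. Over the 11 windows, 1 held the FoxO motif, 6 the E box, 2 the AP-1 motif and 0 the MEF2 motif. Both windows of *Fbxo40* are among the 6 with an E box. Of all 32851 promoters, 3.65% held the FoxO motif, 16.3% the E box, 7.81% the AP-1 motif and 3.69% the MEF2 motif. A match is a run of letters and not evidence of binding.

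Genes around the ligases were taken as lists by function, and their counts stand beside 20.9% higher and 20.1% lower among all genes tested. These shares are under size factors. Equal totals moved the median of all genes to 0.36, and the share of all genes called under it was not counted. Counts under equal totals therefore cannot be set beside these shares. Of 13 genes for E1 and E2 enzymes, 3 were lower, a share near that of all genes, namely *Ube2d3* (log2 fold change -0.57), *Ube2g1* (-0.49) and *Ube2b* (-0.49), the last of which is a partner of N-end rule ligases. The list had a median of -0.22, and under equal totals 2 other members were higher and none of these 3 was called. Of 10 genes for the core of cullin-RING ligases, on which F-box and SOCS-box receptors are built, 6 were lower with a median of -0.42. The largest falls were those of the adaptors *Skp1a* (-0.60) and *Elob* (-0.59) and the scaffold *Cul5* (-0.52), and under equal totals the call was made for 1 gene of the list, which was higher.

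In the ASB family, the relatives of *Asb2*, 6 of 10 genes were lower and 1 (*Asb15*, 0.42) was higher, and the median log2 change was -0.64. *Asb4* fell by 1.91 on the log2 scale (from 119.5 ± 15.3 to 33.0 ± 15.8), *Asb10* by 1.11 (from 1016 ± 59.9 to 480.5 ± 118) and *Asb5* by 0.85 (from 1651 ± 146 to 916 ± 88.4; SD, n = 4 for each). Under equal totals 5 members of the family were lower and 1 was higher. The groups overlapped for *Asb15*, whose call ended under median centring (adjusted p = 0.106 from limma, the highest over the alternatives, with 0.000319 the lowest), and the count of higher genes in the family moved by over 1.5 times in 8 of 19 alternatives. The TRAF family, the relatives of *Traf6*, had 2 of 6 genes higher, which were *Traf1* (log2 fold change 2.48, from 7.23 ± 3.70 to 43.2 ± 13.3) and *Traf4* (1.12, from 27.8 ± 5.74 to 62.1 ± 17.9). *Traf1* and *Traf4* rose while *Traf6* fell. The WT mean of *Traf1* was under the minimum of 10 for testing, which its mean over all muscles reached through the *mdx5cv* group. Under equal totals all 6 relatives were higher, among them *Traf7* at a log2 fold change of 0.38, near the median of all genes of 0.36. Of 20 other ubiquitin ligases of muscle, 6 were lower and 1 was higher. Beside *Cblb*, the largest changes were in *Fbxl22* (log2 fold change 0.85), an F-box protein of the Z disc, and *Wwp1* (-0.68), a HECT ligase. The groups overlapped for *Fbxl22*, whose adjusted p lay between 0.00432 and 0.0828 over the alternatives, and without *mdx5cv* replicate 4 it was not called. The count of higher genes in this list moved in 9 of 19 alternatives, and under equal totals 8 of the 20 were higher and 2 lower. Of 10 deubiquitinases, which remove ubiquitin, *Tnfaip3* was higher (0.69) and *Usp9x* was lower (-0.40), and under equal totals 5 were called, each of them higher.

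Upstream of the ligases, 3 of 14 transcriptional regulators of atrophy were higher, a share near that of all genes, and 1 was lower. Under equal totals 10 were higher and 1 lower, and 2 were higher under median centring and in DESeq2. *Myog*, a myogenic factor that activates *Trim63* and *Fbxo32* after denervation, rose from 40.4 ± 6.62 to 407 ± 245 (log2 fold change 3.14), and *Stat3* rose from 508.5 ± 18.9 to 779 ± 42.6 (0.61). *Dach2*, a repressor of *Myog*, fell from 133 ± 52.6 to 1.83 ± 1.38 (-5.60). Of 12 atrophy signals and receptors, 10 were tested, since *Tnf* and *Il6* were too low. *Mstn*, which encodes the growth inhibitor myostatin, fell from 536 ± 92.1 to 80.9 ± 19.8 (log2 fold change -2.73, adjusted p = 4.78e-07 from limma), and *Igf1* rose from 142 ± 12.3 to 288.5 ± 91.9 (0.97). These were the 2 genes called among the 10, and under equal totals 4 were higher and 1 lower. Of 9 other genes known as FoxO targets, 3 were higher and 1 was lower. The higher genes were the cell cycle inhibitor *Cdkn1a* (3.54, from 23.2 ± 8.06 to 293 ± 142), *Gadd45a* (0.98) and the lysosomal protease *Ctsl* (0.95), while *Bnip3* was lower (-0.58). Under equal totals 4 of the 9 were higher and *Bnip3* was no longer called (adjusted p = 0.145 from limma, the highest over the alternatives, with 0.00136 the lowest). Of 12 substrates of the ligases, *Myod1* (1.44), *Flna* (0.53) and *Egfr* (0.46) were higher and *Ckm* (-0.75) was lower, and the share of higher genes was near that of all genes. Under equal totals 4 were higher and 1 lower, and the count of lower genes moved in 6 of 19 alternatives. The part of the cell markers above in the results on these lists was not tested.

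**Figure D5:**
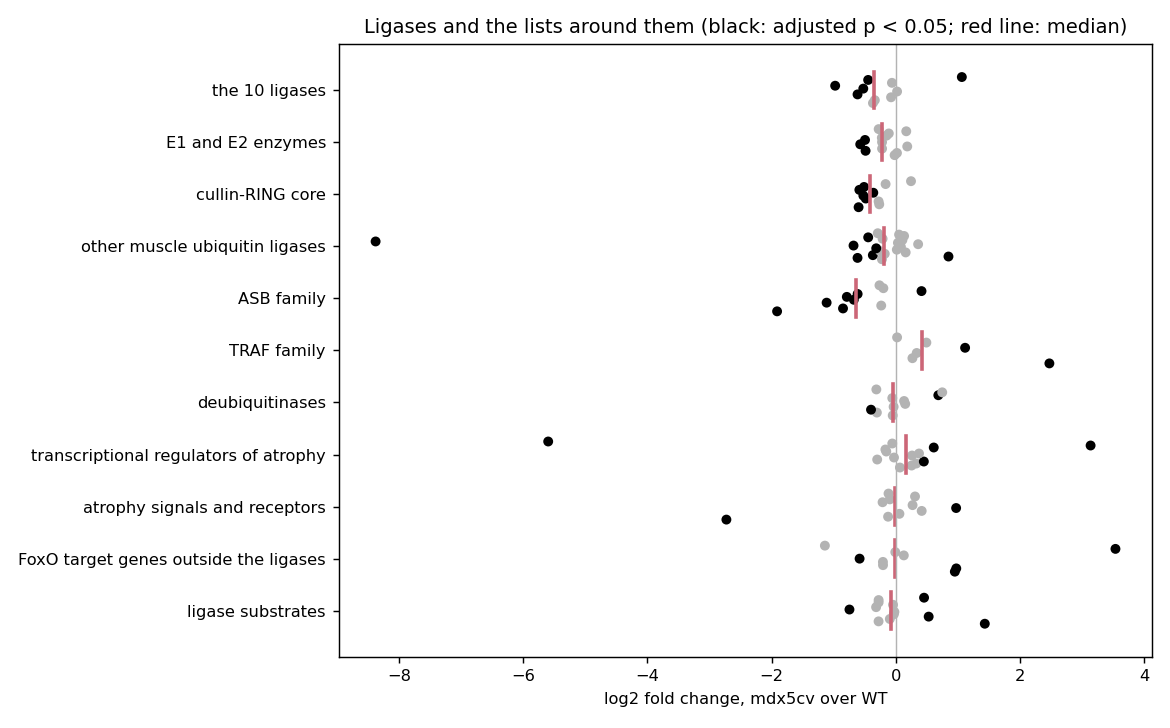
Log2 fold change (x axis, *mdx5cv* over WT) of each tested gene in the 10 ligases and 10 lists around them, black where the adjusted p is under 0.05 in limma and grey otherwise, with the median of each list as a red line. The ASB family (median -0.64) and the cullin-RING core (-0.42) lie left of 0 and the TRAF family (0.42) lies right of it.

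Reads of some ligases may be shared with genes that overlap them. *Nedd4* overlaps *Gm7265* (162.5 normalized counts in WT and 148 in *mdx5cv*) and *Gm36936* (177 in both), and *Trim55* overlaps *BC002189* (23.7 and 28.3), all on the same strand. *Fbxo32* overlaps the antisense gene *Gm15943* (5.02 and 1.42). Whether the counting used the strand is not given in the sources used here.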

How the data were processed

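Total RNA from whole TA muscles was extracted with Trizol and made into stranded libraries after depletion of ribosomal RNA. Per the labels, the submitters' processing notes name Trim Galore 0.6.4, STAR 2.6.0c, SAMtools 1.9, featureCounts and DESeq2 1.26.0 with the mm10 genome. The authors deposited 1 signal per gene and sample, the normalized count, for 55401 genes. Each column was a whole multiple of 1 read for 100% of values (tolerance 0.001 reads), so reads were recovered. The methods describe tools for other RNA-seq of the study, not for these samples.

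Genotypes were compared with limma 3.58.1 (R 4.3.3) after adding 1 and taking log2, using the trend in the variance, two-sided, and p-values were adjusted by Benjamini-Hochberg over 13677 genes whose mean reached 10. The pseudocount understates changes of low genes. Ratios between ligases were tested by exact permutation over samples. The alternatives were pseudocounts of 0.1 and 10, a fit to every gene without a filter or to those reaching 10 in each muscle, scaling by TMM, to equal totals or on the median, a constant prior variance, a block for the replicate number, leaving out each muscle, and edgeR 4.0.16 and DESeq2 1.42.0 on the recovered reads. Scripts were tested on simulated data. Coordinates and exon lengths are from GENCODE M21 (GRCm38), matched by gene ID for 55141 of the genes.

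The ligases and lists were chosen with earlier results of these data known. All 10 ligases are named, and of each further list up to 3 called genes with the largest absolute log2 fold change. The result of 1 further list is not reported here. *Asb15*, *Bnip3*, *Egfr* and the overlapping genes were named after their values were seen. Reads of replicates differed by more than sampling noise (chi-square over degrees of freedom 9.55 to 43.2), so no library repeated another.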

Additional observations from a re-analysis of the deposited data

Results flagged for a closer look

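Of 48 sets of 4 muscles (each ligase, ratio and marker list in each genotype), 5 held a muscle that lay far from the other 3 by Dixon's test. Chance gives at most 2.4, since the sets of lymphocyte markers are counted but had no tested gene and no value. *Trim54* was low in *mdx5cv* replicate 4, with a log2 normalized count of 9.63 against 10.18 to 10.27 in the others. *Trim55* was low in *mdx5cv* replicate 2, at 8.958 against 9.23 to 9.279. *Traf6* was high in *mdx5cv* replicate 2, at 8.081 against 7.786 to 7.815. The log2 ratio of *Trim63* to *Fbxo32* was high in *mdx5cv* replicate 4, at -0.445 against -0.8203 to -0.7989. The median log2 deviation of fibroblast markers from the WT mean was high in WT replicate 2, at 0.1692 against -0.07607 to -0.04303.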

How the results depend on the processing

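Equal totals changed the ligase results most, with 2 called higher and 1 lower. Its log2 fold changes were 0.021 for *Trim54*, 0.28 for *Trim55* and 0.30 for *Nedd4*, against negative values under size factors, and it raised all genes by about 0.36. The log2 fold change of *Fbxo30* was -0.073 under median centring and ranged from -0.057 to 0.070 when each muscle was left out. Leaving out each muscle gave 3 to 5 lower ligases and 0 to 2 past an absolute log2 fold change of 1. It was 0 without *mdx5cv* replicate 4 and 2 without *mdx5cv* replicate 1 or 2, when *Asb2* joined *Cbl*. Without WT replicate 3 the 1 ligase past it was *Asb2* (-1.04) and not *Cbl* (0.985). Without 1 muscle the log2 ratio differences ranged from -0.19 to 0.19 for *Trim54* to *Trim63*, from 0.17 to 0.51 for *Trim55* to *Trim63*, from 0.38 to 0.86 for *Fbxo30* to *Fbxo32* and from -0.019 to 0.26 for *Fbxo40* to *Fbxo32*. The replicate block gave 1 higher and 5 lower ligases, with *Trim63* added (adjusted p = 0.0490 from limma). With the block the adjusted p of *Fbxo32* was 0.000908 from limma, against 0.0248 without it. Same-numbered muscles deviated together with r of 0.05, 0.031, 0.072 and 0.146, and replicates 3 and 4 correlated best with their own number. These correlations cannot exclude that same-numbered muscles shared a batch or a pairing. *Asb2* and *Cbl* kept their calls under all 19 alternatives. The share of all genes called was not counted under any of these alternatives. The 4 muscles per genotype limit the precision, and the cause of each change was not tested.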
